A study of Glycine max with 54 samples.

Results

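Soybean seeds of the variety Archer, picked at a length of 5-6 mm in 2007, were compared with Archer seeds of 3.5 mm from the same field season, with 3 arrays at each length. These 6 arrays are part of a series of 54 Affymetrix soybean arrays in 18 groups of 3, which covers 2 parent varieties, Archer and Minsoy, and 2 recombinant inbred lines at 3 seed lengths. Per the labels, total RNA came from whole seeds, each line stood in a single row in 2007, the 3 samples of a length were collected independently, and 3.5 mm and 5-6 mm stand for about stages R5 and early R6. All groups compared here were untreated field-grown plants. They were Archer and Minsoy 2007 at 2, 3.5 and 5-6 mm, and Archer 2008 at 3.5 and 5-6 mm. In 2008, samples from both rows of a replicate were pooled. Fits with 2008 arrays also took their spread from Archer 2008 at 2 mm and Minsoy 2008 at the 3 lengths. An alternative fit used all 54 arrays, with the recombinant inbred lines. A whole seed holds embryo, endosperm and seed coat, and the labels separate none of them. Because 1 row of each line was planted, the p-values measure spread between samples within rows and not between rows. In the main fit that spread was pooled over the 18 parent arrays of 2007, Archer and Minsoy together.

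The members were all probe sets, other than Affymetrix controls and ribosomal RNA, with a log2 signal of 5 or more in at least 3 of the 6 arrays. Of 37744 probe sets, 24097 met this rule, and 23057 of them reached log2 5 in all 6 arrays. The annotation given for the array named 1 gene for 6419 members, several genes for 291 and none for 17387. Only 715 genes had a symbol that is more than a locus number, so most changes described here belong to sequences with no name. Just inside the rule were 275 probe sets that reached log2 5 in exactly 3 arrays, and just outside were 393 that reached it in 2. Members that reached log2 5 only in 5-6 mm arrays (93, of which 54 changed by the test) or only in 3.5 mm arrays (66, of which 34 did) had to differ.

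In a legume seed of this age cell division in the embryo gives way to filling. The cotyledons take up sucrose and amino acids from the seed coat and lay down storage globulins and albumins in protein storage vacuoles, oil in oil bodies, and protective proteins such as late embryogenesis abundant (LEA) proteins, lipoxygenases and protease inhibitors. Storage proteins are made as precursors that vacuolar proteases cut, and the filling genes of soybean come on in sequence and not all at once.

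The 6 arrays did not form 2 tight groups. Each array was given a stage score from the Minsoy arrays of 2007 alone, on which 0 is the Minsoy mean at 2 mm and 1 the Minsoy mean at 5-6 mm, over the 200 probe sets that changed most in Minsoy in each direction. The Archer 5-6 mm arrays scored 0.857, 0.994 and 0.932, against 0.338, 0.331 and 0.711 for the 3.5 mm arrays, in the order of replicates 1 to 3. Replicate 3 at 3.5 mm therefore stood far above the other 3.5 mm arrays, and replicate 1 at 5-6 mm stood lowest at its length. Over all 24097 members these arrays also correlated most with each other (r = 0.9885), more than 5-6 mm replicate 1 did with its own group (0.971 and 0.9821). The same numbers stood out in Minsoy, where 5-6 mm replicate 1 scored lowest at its length (0.939, 1.052 and 1.008) and 3.5 mm replicate 3 highest (0.668, 0.647 and 0.868). What sets these arrays apart was not tested. The probe sets for the ends of the soybean actin transcript differed little among the 6 Archer arrays (3′ end 12.81 to 12.89, 5′ end 13.39 to 13.67), and seed coat, embryo and maturation genes are given below array by array.

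**Figure D1:**
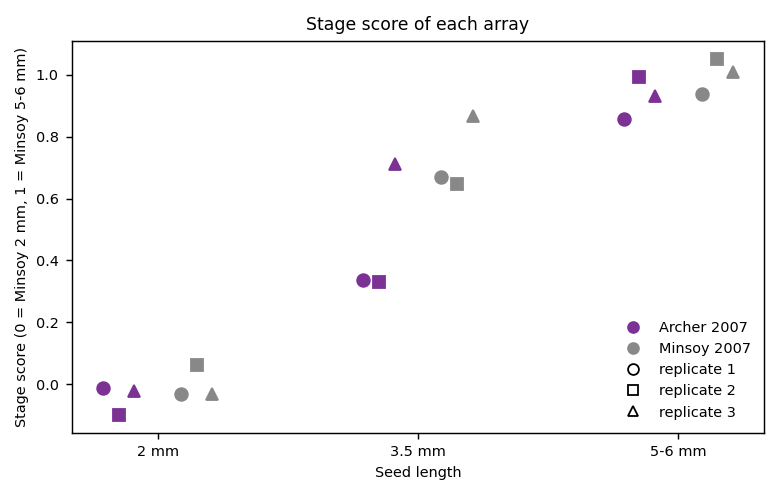
Stage score (0 = mean of Minsoy 2 mm arrays, 1 = mean of Minsoy 5-6 mm arrays) of each 2007 array by seed length, with Archer in purple, Minsoy in grey and the replicate number as the marker shape. Archer 3.5 mm replicate 3 (0.711) lies nearer the 5-6 mm arrays than the other 3.5 mm arrays (0.338 and 0.331) do.

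In the seeds of 5-6 mm, 8 of 13 seed maturation genes, 2 of 6 protease inhibitor and seed defence genes, the seed lipoxygenase LOX3 and 5 of 30 flavonoid genes had risen relative to 3.5 mm seeds. The inhibitor D-II and the flavonoid gene IFS2 passed the filter only through 5-6 mm arrays, so their calls are no independent support of a rise. The cytokinin oxidase CKX3, the cell wall enzyme XTH1, the peptide gene GASA6 and the auxin-response gene AUX22 had fallen. By limma, fitted to the 18 parent arrays of 2007 with Benjamini-Hochberg adjustment over all members, 1122 probe sets (4.66%) changed at an adjusted p under 0.05. Of these, 759 (3.15%) rose and 363 (1.51%) fell, with a median change of 1.44 among those that rose and -1.20 among those that fell, on the log2 scale where 1 unit is 2-fold. The change was 8-fold or more for 133 that rose and 27 that fell. The median change over all members was -0.04. Among the 715 named genes, with 1 probe set each, 63 rose (8.81%) and 16 fell (2.24%), with a median change of 0.02. Without 3.5 mm replicate 3, 12.7% of them rose and 4.62% fell. In whole seeds, fewer cells of a type and less RNA per cell cannot be told apart.

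These calls lie close to the threshold and depend on which arrays are used. The lowest adjusted p was 0.000876 and the median among the called was 0.0316. Without 3.5 mm replicate 3 the count was 1966 (8.16%), which held 1107 of the 1122, and without 5-6 mm replicate 1 it was 1290, which held 940. With both left out it was 2073, which held 1080. Without any 1 of the other 4 arrays (5-6 mm replicate 2 or 3, 3.5 mm replicate 1 or 2) a single probe set stayed called, and with the 6 arrays alone none did, although 6693 then had an unadjusted p under 0.05 (4866 in the fit of 18 arrays). No called probe set changed its direction in any of these fits. In 1115 of the 1122 the lengths did not overlap, so leaving out arrays could not reverse the direction there. The one probe set that stayed called, GmaAffx.69826.1.A1_at, has no gene in the annotation. It passed the filter only through its 5-6 mm arrays, so it was one of those that had to differ. It measured 5.47, 6.37 and 5.94 at 5-6 mm against 3.32, 3.29 and 3.64 at 3.5 mm, a change of 2.51 ± 0.24 (SE; adjusted p = 0.000876, limma).

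Which arrays were extreme was nearly the same throughout the called probe sets. At 3.5 mm, replicate 3 was the highest array of its length for 733 of the 759 that rose and the lowest for 349 of the 363 that fell. At 5-6 mm, replicate 1 was the lowest for 652 of those that rose and the highest for 251 of those that fell. The matching shares over all members are not given here, so these counts do not set the called probe sets apart. The 2 lengths did not overlap in 1115 of the 1122. Over all members, every 5-6 mm array was above every 3.5 mm array in 15.6% and below in 17.8%. Among the named genes these shares were 25.3% and 22.2%.

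The largest rises among named genes were those of D-II and GM2S-1. D-II, a protease inhibitor of the Bowman-Birk type that blocks digestive serine proteases, measured 7.22, 14.81 and 13.13 at 5-6 mm against 1.96, 1.96 and 2.05 at 3.5 mm. The 3.5 mm arrays were at or next to the lowest value of the set (1.96), and 5-6 mm replicate 1 lay between them and its own group. The change was 9.73 ± 2.37 (SE; adjusted p = 0.0357, limma), and since the lower group is at the floor its size is not exact. D-II, and likewise GM2S-1, PARP3, IFS2, MYB143, WRKY15 and GmaAffx.79829.1.S1_at, reached log2 5 only at 5-6 mm, and NAC34 and Gma.13133.1.S1_at only at 3.5 mm, so the filter itself favoured the difference in these 9 and their calls are no independent support of it. GM2S-1, a sulphur-containing seed albumin, measured 7.18, 14.15 and 13.08 at 5-6 mm against 1.96, 1.96 and 4.05 at 3.5 mm. Here too the lengths were apart and 5-6 mm replicate 1 was the lowest of its group (8.82 ± 2.13, SE; adjusted p = 0.0349), and it too entered only through the longer seeds. LOX3, a seed lipoxygenase that oxidizes polyunsaturated fatty acids, measured 8.196, 13.72 and 12.40 at 5-6 mm against 3.39, 3.45 and 6.71 at 3.5 mm. It rose by 6.92 ± 1.59 (SE; adjusted p = 0.0301), and a second probe set of the gene rose by 6.86. KTI-2, a Kunitz-type protease inhibitor, was already strong at the shorter length, with 12.97, 14.33 and 13.53 at 5-6 mm against 10.65, 10.59 and 11.90 at 3.5 mm (2.57 ± 0.50, SE; adjusted p = 0.0226).

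Of the 6 protease inhibitor and seed defence genes that passed the filter, of 10 on the array, these 2 inhibitors rose and none fell; the median change was 2.63. BBI, the Bowman-Birk inhibitor itself, did not pass the test. It measured 5.31, 14.33 and 11.99 at 5-6 mm against 2.26, 2.05 and 2.26 at 3.5 mm, so only replicate 1 at 5-6 mm was near the shorter seeds (8.36 ± 2.41, SE; adjusted p = 0.0623). KTI3, the main Kunitz trypsin inhibitor of soybean seed, showed the other pattern and did not pass either. It measured 15.12, 15.55 and 15.50 at 5-6 mm against 11.67, 11.83 and 14.61 at 3.5 mm, where replicate 3 was next to the longer seeds (2.69 ± 0.76, SE; adjusted p = 0.0579). The remaining 2 differed by 0.78 (KTI-3) and 0.25 (CYSTATIN, an inhibitor of cysteine proteases), with adjusted p of 0.265 and 0.543.

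**Figure D2:**
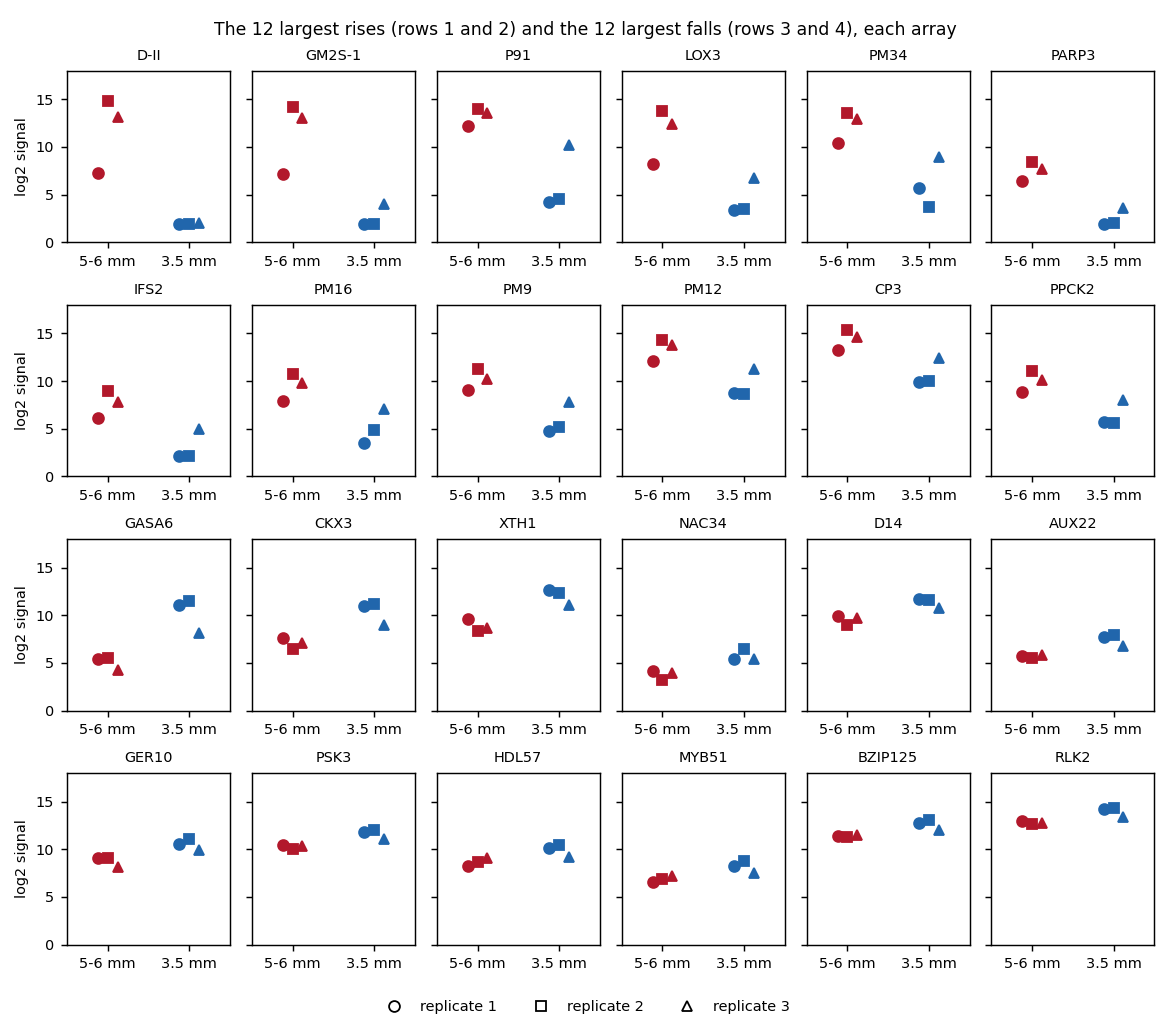
Deposited log2 signal of each array for the 12 named genes with the largest rises (upper rows, from D-II to PPCK2) and the 12 with the largest falls (lower rows, from GASA6 to RLK2), with 5-6 mm in red at the left and 3.5 mm in blue at the right of each panel and the replicate as the marker shape. The lengths do not overlap in any panel, and 3.5 mm replicate 3 (triangle) is the 3.5 mm array closest to the 5-6 mm arrays in every one.

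Of the 13 genes of the LEA and seed maturation list that passed the filter, of 30 on the array, 8 rose and none fell, with a median change of 3.24. PM34, a seed maturation protein, measured 10.40, 13.55 and 12.89 at 5-6 mm against 5.65, 3.74 and 8.95 at 3.5 mm (6.17 ± 1.16, SE; adjusted p = 0.0226, limma). PM16 measured 7.91, 10.72 and 9.77 at 5-6 mm against 3.55, 4.83 and 7.08 at 3.5 mm and rose by 4.31 ± 1.11 (SE; adjusted p = 0.0412). PM9 measured 9.04, 11.30 and 10.25 against 4.72, 5.20 and 7.78 in the shorter seeds, a rise of 4.296 ± 0.97 (SE; adjusted p = 0.0296). In all 3 the lengths were apart, with 3.5 mm replicate 3 below 5-6 mm replicate 1 by under 1.5 log2 units. PM12 rose by 3.86, PM30 by 3.56, PM39 by 3.31, PM32 by 3.24 and PM40 by 2.38. LEA5 and PM29 measured higher by 3.14 and 2.18 without passing the test (adjusted p = 0.0659 and 0.191). PM23, PM37 and LEA-2 differed by 0.11, 0.03 and -0.48, so the list did not move as one. Without 3.5 mm replicate 3, 9 of the 13 passed. Without any 1 of 5-6 mm replicates 2 and 3 and 3.5 mm replicates 1 and 2, no gene of this or any other list passed.

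The storage globulins themselves hardly entered the test, because most of these genes reached log2 5 in only 2 of the 6 arrays. Of 11 storage globulin and albumin genes only GM2S-1 passed the filter. GY1, a glycinin subunit and one of the most abundant proteins of the mature seed, measured 1.96, 16.47 and 15.46 at 5-6 mm against 1.96 in each of the 3.5 mm arrays. Replicates 2 and 3 at 5-6 mm were high and replicate 1 was at the floor, like the shorter seeds. GY2 and GY5, further glycinins, had the same shape: GY2 had 2.02, 14.43 and 13.17 at 5-6 mm against 2.00, 2.02 and 2.00 at 3.5 mm. GY5 had 1.96, 14.77 and 13.20 at 5-6 mm against 1.96 in all 3.5 mm arrays. CG-1 and CG-BETA-1, beta-conglycinin subunits, measured 2.09, 11.45 and 9.93 and 1.96, 11.73 and 7.96 at 5-6 mm, and both were at 1.96 in each 3.5 mm array. With no filter, GY1 had an adjusted p of 0.244 and the other 4 between 0.239 and 0.457 in limma, so none passed. GY7 and BG7S-2 stayed under log2 2.2 in all 6 arrays.

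High values in 5-6 mm replicates 2 and 3 alone were also seen outside the storage globulins. Among the 177 list genes below the filter, 22 reached log2 5 in 5-6 mm replicates 2 and 3 and in no other array: 8 storage protein genes, 6 seed maturation genes, 2 lipoxygenases, 2 protease inhibitor or seed defence genes, and 4 genes of other lists. Their 3.5 mm values ran between 1.96 and 4.68, and not all were far apart: NAC19 measured 4.62, 5.30 and 5.64 at 5-6 mm against 4.68, 4.62 and 4.61 at 3.5 mm. P34, a seed vacuolar protein related to cysteine proteases and a known soybean allergen, measured 3.44, 15.34 and 13.89 at 5-6 mm against 2.04, 2.04 and 2.04 at 3.5 mm. LOX2, another seed lipoxygenase, measured 4.23, 14.85 and 13.02 at 5-6 mm against 1.96 in all 3.5 mm arrays. KTI1, a further Kunitz inhibitor, measured 2.05, 13.30 and 12.55 at 5-6 mm against 1.96 in all 3.5 mm arrays. These genes were chosen after their values were seen, and no count over them is a test. Among all probe sets other than controls and ribosomal RNA, 393 reached log2 5 in exactly 2 of the 6 arrays. How many of them did so in 5-6 mm replicates 2 and 3 was not counted, so the pattern is not shown to be particular to seed genes.

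**Figure D3:**
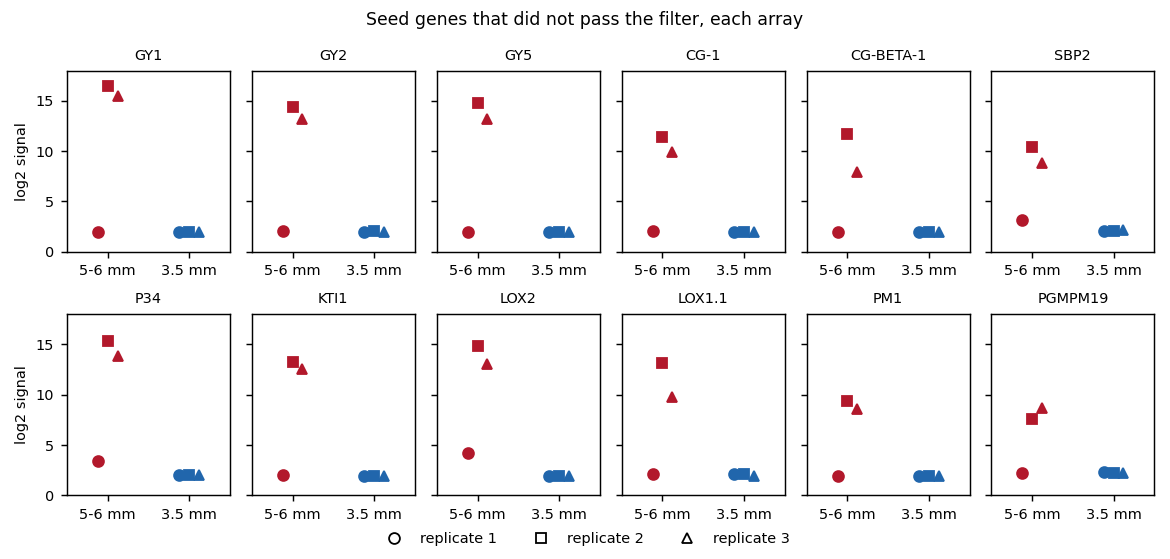
Deposited log2 signal of each array for 12 seed genes that did not pass the filter, with 5-6 mm in red at the left and 3.5 mm in blue at the right of each panel and the replicate as the marker shape; they were picked after their values were seen. In GY1 replicates 2 and 3 at 5-6 mm read 16.47 and 15.46, while replicate 1 and all 3.5 mm arrays read 1.96.

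The arrays of Minsoy in 2007 and Archer in 2008 held the same genes in other mixtures of on and off. GY1 measured 15.75, 16.76 and 16.34 in Minsoy 5-6 mm seeds of 2007 against 1.96, 1.96 and 16.16 in Minsoy 3.5 mm seeds. In Archer of 2008 it measured 16.10, 15.81 and 15.27 at 5-6 mm against 13.28, 1.96 and 5.23 at 3.5 mm. GY1 was thus high in every 5-6 mm array of these other groups, and Archer 2007 replicate 1 was the 1 array of that length among these 3 groups where it was at the floor. CG-BETA-1 was low in Minsoy 5-6 mm replicate 1 as well, with 2.09, 14.96 and 15.27 at 5-6 mm against 1.96, 1.96 and 2.33 at 3.5 mm. In Archer of 2008 the low 5-6 mm array for CG-BETA-1 was replicate 3, with 12.975, 10.416 and 2.785 at that length.

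Vacuolar processing enzymes cut storage protein precursors in plant seeds. VPE, a gene of this family, measured 9.80, 11.40 and 10.80 at 5-6 mm against 6.87, 6.97 and 9.12 at 3.5 mm, and the lengths did not overlap (3.01 ± 0.63, SE; adjusted p = 0.0259, limma). It was the 1 of 4 genes of the list that passed the filter and rose; VPE2 measured higher by 2.17 with an adjusted p of 0.404.

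Sucrose uptake, starch and oil genes rose in part. SUT1, a sucrose transporter, measured 7.51, 10.54 and 9.19 at 5-6 mm against 4.17, 5.69 and 6.70 at 3.5 mm, with no overlap. It rose by 3.56 ± 0.89 (SE; adjusted p = 0.0392, limma). Its mean in Archer was 7.32 at 2 mm, 5.52 at 3.5 mm and 9.08 at 5-6 mm, so the shortest seeds were not the lowest. A further SUT1 probe set rose by 2.35, and another measured higher by 2.80 without passing (adjusted p = 0.0526, limma). GBSSIa, a granule-bound starch synthase that makes amylose, rose by 1.02 ± 0.26 (SE; adjusted p = 0.0398). Its other probe sets measured higher by 1.23 and 1.21 without passing (adjusted p = 0.121 and 0.0673, limma). SUT1 and GBSSIa were the only calls among 10 sucrose and starch genes that passed the filter (median 0.26).

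Of 19 genes of fatty acid and triacylglycerol synthesis, 5 rose, none fell and the median change was 0.37. WRI1B, a relative of the transcription factor WRINKLED1 that in Arabidopsis switches on fatty acid synthesis, measured 10.27, 10.55 and 10.48 at 5-6 mm against 8.66, 8.73 and 10.18 at 3.5 mm. Its 5-6 mm arrays lay close together, and 3.5 mm replicate 3 was just beneath them (1.24 ± 0.29, SE; adjusted p = 0.0323). Of the subunits of plastid acetyl-CoA carboxylase, the entry enzyme of the pathway, ACCC-2 rose by 1.13, ACCC-3 by 0.61 and ACCB-2 by 0.57. SAD2, placed in the list by its symbol alone, rose by 0.95. FAD2-1A, the seed desaturase that makes linoleic acid, did not pass the test although its difference was the largest of the list. It measured 12.53, 14.98 and 14.32 at 5-6 mm against 8.54, 7.86 and 11.85 at 3.5 mm (4.53 ± 1.24, SE; adjusted p = 0.0527). The desaturases FAD3B and FAD3C, which make linolenic acid, differed by 0.37 and -0.17 with adjusted p of 0.242 and 0.728.

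PPCK2, a kinase that activates phosphoenolpyruvate carboxylase and so the supply of carbon skeletons, measured 8.86, 11.09 and 10.13 at 5-6 mm against 5.66, 5.65 and 7.98 at 3.5 mm. The 3.5 mm replicate 3 was within 1 log2 unit of the lowest 5-6 mm array (3.60 ± 0.82, SE; adjusted p = 0.0301, limma). PEPC17, a carboxylase gene, rose by 0.60, and the other 4 genes of the list that passed the filter did not pass the test. None of the 24 genes of amino acid supply passed the test, with a median change of 0.05.

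Isoflavonoids are defence and signalling compounds that soybean seeds store in quantity. IFS2, an isoflavone synthase that commits the pathway to them, measured 6.16, 9.01 and 7.84 at 5-6 mm against 2.19, 2.18 and 4.96 at 3.5 mm. It passed the filter only through the longer seeds, and it rose by 4.56 ± 0.92 (SE; adjusted p = 0.0238, limma). CHI1B1, a chalcone isomerase one step before, measured 7.44, 8.83 and 7.89 at 5-6 mm against 3.70, 4.14 and 6.47 at 3.5 mm (3.29 ± 0.68, SE; adjusted p = 0.0252). IF7MaT, which adds malonyl groups to isoflavone glucosides for storage, rose by 2.58 ± 0.60 (SE; adjusted p = 0.0311), and both of its other probe sets rose. CHI3A1, placed in the list by a symbol that refers to chalcone isomerase, rose by 2.19 and 4CL, an earlier phenylpropanoid enzyme, by 0.66. Another probe set of CHI3A1 rose by 1.94, and a further one measured higher by 2.61 without passing (adjusted p = 0.0833, limma). IFS1, the second isoflavone synthase, measured 8.17, 9.04 and 8.298 at 5-6 mm against 3.00, 4.305 and 7.09 at 3.5 mm and did not pass (3.70 ± 1.07, SE; adjusted p = 0.0627). Of 30 flavonoid and isoflavonoid genes 5 rose and none fell, and the median of 0.03 was near that of the named genes, so the rises belonged to a few genes. Without 3.5 mm replicate 3, 9 of the 30 passed.

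The lipoxygenase list held 1 rise and no fall. Beside the rise of the seed gene LOX3, the vegetative genes measured lower at 5-6 mm, but their main probe sets did not pass the test. LOXB1 measured 6.07, 5.61 and 5.77 at 5-6 mm against 9.82, 10.16 and 8.29 at 3.5 mm, without overlap (-3.61 ± 1.03, SE; adjusted p = 0.0604, limma). VLXB, VLXC and LOX7 differed by -1.78, -1.77 and -1.67, with adjusted p of 0.0629, 0.0673 and 0.0985. The median of the 6 lipoxygenases that passed the filter was -1.72, and 4 of the 6 passed the test without 3.5 mm replicate 3. Vegetative lipoxygenases have near-identical sequences, so these probe sets may share signal.

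Of 15 photosynthesis and chlorophyll genes 3 rose and none fell, with a median of 0.56, and 6 rose without 3.5 mm replicate 3. CHLH, a subunit of the magnesium chelatase of chlorophyll synthesis, rose by 0.99 ± 0.21 (SE; adjusted p = 0.0273, limma), RCAALPHA, a Rubisco activase, by 0.99 and SGR, a stay-green protein that acts in chlorophyll breakdown, by 1.41. RCABETA, the other activase form, differed by -0.52 with an adjusted p of 0.140.

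Of 4 regulators of seed development 1 rose and none fell, with a median of 1.34, and 3 rose without 3.5 mm replicate 3. NF-YA13, a subunit of a CCAAT-binding factor, measured 8.41, 9.38 and 9.09 at 5-6 mm against 6.84, 6.82 and 7.98 at 3.5 mm and rose by 1.74 ± 0.41 (SE; adjusted p = 0.0323, limma). LEC1-A, a relative of the Arabidopsis embryo regulator LEAFY COTYLEDON1, measured 12.33, 12.31 and 12.24 at 5-6 mm against 10.58, 11.04 and 12.05 at 3.5 mm. It did not pass (1.07 ± 0.31, SE; adjusted p = 0.0667), and 3.5 mm replicate 3 was within 0.3 of the 5-6 mm arrays. MFT, which in Arabidopsis acts in seed germination, measured higher by 1.60 (adjusted p = 0.0623). Among factor families that were counted whole, 2 of 42 bZIP genes rose (BZIP132 by 2.36 and BZIP70 by 0.87) and BZIP125 fell by 1.23. Of 39 MYB genes MYB143 rose by 1.52 and MYB51 fell by 1.30, of 16 WRKY genes WRKY15 rose by 1.16 and WRKY22 fell by 0.97, and of 8 NAC genes NAC34 fell by 2.00. The medians of these families ran between -0.11 and -0.04. Without 3.5 mm replicate 3, 5 MYB genes and 4 WRKY genes passed the test.

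Among named genes 16 fell, and GASA6 had the largest fall. GASA6, of the family of gibberellin-regulated cysteine-rich peptides, measured 5.40, 5.50 and 4.29 at 5-6 mm against 11.04, 11.46 and 8.15 at 3.5 mm. Even 3.5 mm replicate 3 was over 2.5 log2 units above the longer seeds (-5.15 ± 0.78, SE; adjusted p = 0.0144, limma). It was the only call among 14 GASA genes, of which 3 fell without 3.5 mm replicate 3; GASA12 measured higher by 2.77 with an adjusted p of 0.0901. CKX3, a cytokinin oxidase that destroys this hormone of cell division, measured 7.65, 6.50 and 7.09 at 5-6 mm against 10.92, 11.17 and 9.01 at 3.5 mm (-3.29 ± 0.84, SE; adjusted p = 0.0409). XTH1, an enzyme that remodels cell wall xyloglucan, measured 9.65, 8.30 and 8.67 at 5-6 mm against 12.65, 12.37 and 11.11 at 3.5 mm (-3.17 ± 0.57, SE; adjusted p = 0.0226). In these 3 genes the lengths did not overlap, and the fall continued one between the shorter seeds: the Archer means at 2, 3.5 and 5-6 mm were 13.51, 10.22 and 5.06 for GASA6, 12.02, 10.37 and 7.08 for CKX3, and 13.06, 12.04 and 8.87 for XTH1.

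AUX22, an early auxin-response gene, measured 5.72, 5.51 and 5.79 at 5-6 mm against 7.73, 7.91 and 6.81 at 3.5 mm and fell by 1.81 (SE 0.38; adjusted p = 0.0257, limma). D14, named after the strigolactone receptor, measured 9.89, 9.01 and 9.66 at 5-6 mm against 11.74, 11.58 and 10.75 at 3.5 mm and fell by 1.84 (SE 0.43; adjusted p = 0.0313). In both genes the 5-6 mm arrays were below every 3.5 mm array. The remaining named falls were GER10, a germin-like protein, by 1.73, PSK3 by 1.35, HDL57 by 1.30 and RLK2, a receptor-like kinase, by 1.20. Another GER10 probe set differed by -1.66 without passing (adjusted p = 0.133, limma). A further RLK2 probe set fell by 1.17, and another differed by -0.96 without passing (adjusted p = 0.311). Of 18 genes of hormones other than gibberellin, ADR11, first known as an auxin-repressed gene, rose by 0.69 beside the falls of CKX3 and AUX22. Of 5 gibberellin genes GAI2, a DELLA repressor of gibberellin response, rose by 1.93. Of 9 cell wall genes PRP3, a proline-rich wall protein, rose by 0.68 beside the fall of XTH1, and of 5 cell cycle genes only TUBB3, a beta-tubulin, rose, by 0.58. Another PRP3 probe set measured higher by 0.69 without passing (adjusted p = 0.0581, limma).

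The largest falls of all belonged to probe sets with no gene. Gma.1379.3.S1_at measured 5.20, 3.37 and 2.36 at 5-6 mm against 11.96, 12.49 and 9.45 at 3.5 mm and fell by 7.66 (SE 1.02; adjusted p = 0.00957, limma). Its identifier shares a stem with the GASA6 probe set. Gma.13133.1.S1_at measured 2.29, 2.29 and 2.32 at 5-6 mm against 10.09, 10.79 and 7.13 at 3.5 mm and fell by 7.04 (SE 0.91; adjusted p = 0.00957), so its signal was near the floor in all longer seeds and it passed the filter only through the shorter ones. GmaAffx.79829.1.S1_at rose by 8.86 (SE 1.75) and GmaAffx.36259.1.S1_s_at by 8.53 (SE 1.52), with adjusted p of 0.0230 and 0.0226. P91, whose product the annotation does not give, measured 12.24, 14.00 and 13.55 at 5-6 mm against 4.19, 4.56 and 10.24 at 3.5 mm, so 3.5 mm replicate 3 lay between the other 3.5 mm arrays and the longer seeds (6.93 ± 1.26, SE; adjusted p = 0.0226). CP3, likewise without a product, rose by 3.62, and PARP3, a poly(ADP-ribose) polymerase, by 4.98.

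Over all 33 lists, 387 of 564 genes passed the filter, 42 rose and 8 fell, with a median change of 0.04 (named genes together 8.81% and 2.24%). The other single calls were GSTU41, a glutathione transferase (2.36), SIP1-6, an aquaporin (1.43), and CRY2B, a blue light receptor (1.49), which all rose. The 10 lists with no call held 74 genes that passed the filter, among them heat shock (13), ribosomal proteins (4), protein folding in the endoplasmic reticulum (5), defence (6) and phytate (7). Without 3.5 mm replicate 3 the calls were 4 for cell wall genes, 2 each for the gibberellin, aquaporin, clock and glutathione transferase lists, and 1 each for amino acid supply and for tocopherol and carotenoid genes. Over all lists that fit called 81 genes, and 0 were called without 5-6 mm replicate 2 or 3 or 3.5 mm replicate 1 or 2. Of the 3 seed coat genes, Ep, a seed coat peroxidase, measured 13.78, 14.98 and 14.65 at 5-6 mm against 11.83, 11.82 and 13.06 at 3.5 mm. SCB1 measured 16.19, 15.77 and 16.05 at 5-6 mm against 16.28, 16.34 and 16.13 at 3.5 mm. HPS, the hydrophobic protein of the seed surface, was scattered, with 4.99, 5.35 and 7.93 at 5-6 mm against 3.58, 9.74 and 5.19 at 3.5 mm. None of the 3 passed (adjusted p = 0.422 for Ep, 0.582 for SCB1 and 0.990 for HPS), and the part of seed coat tissue in other changes was not tested.

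**Figure D4:**
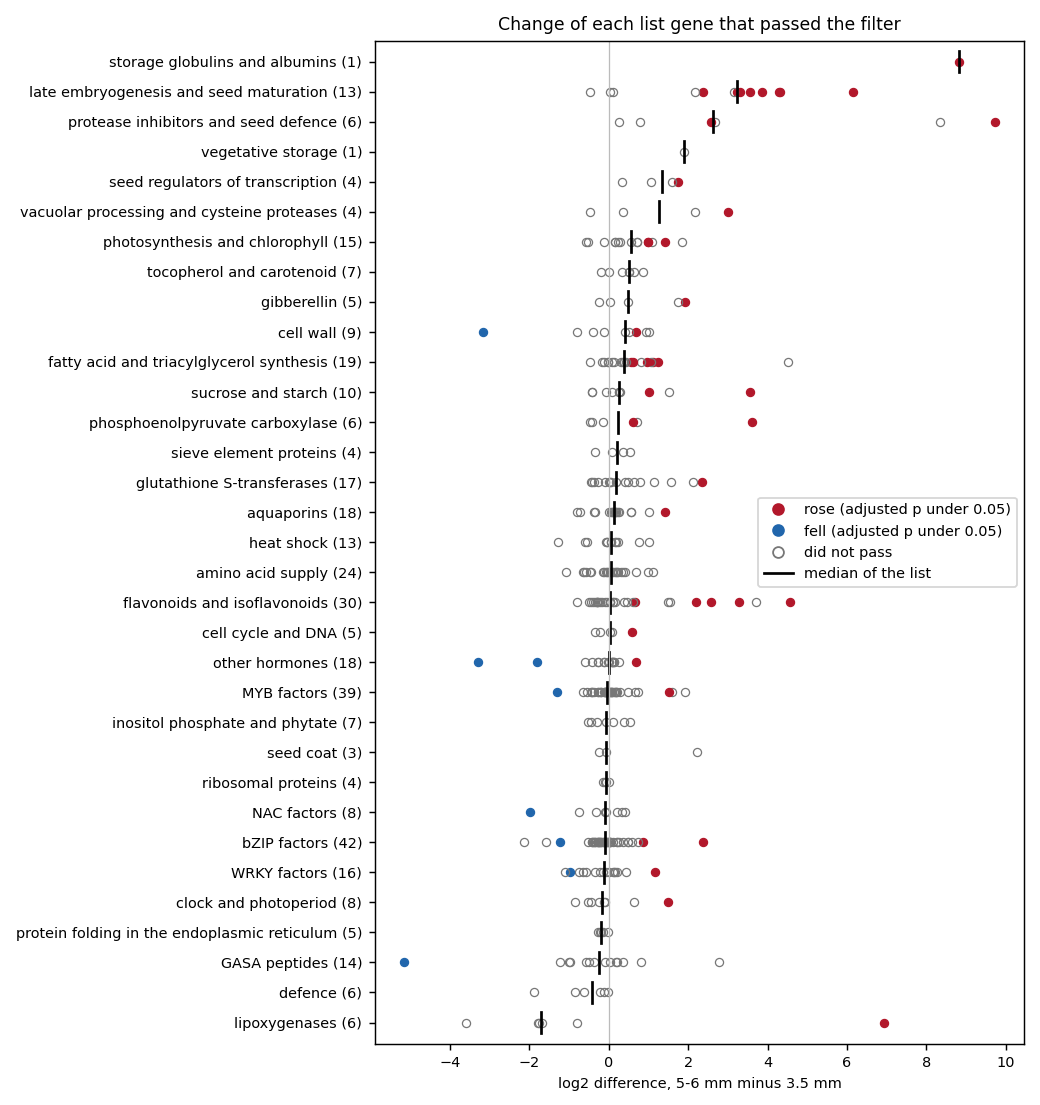
Log2 difference, 5-6 mm minus 3.5 mm, of each list gene that passed the filter, by list (number of genes in brackets), ordered by the median (black bar); red points rose and blue points fell at an adjusted p under 0.05, and open points did not pass. The LEA and seed maturation list has a median of 3.24 with 8 of 13 genes in red, while most lists have medians near 0.

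The change was next set against that of Minsoy in the same season, which tests whether it differed between the samples of the parents. As each line stood in 1 row, parent and row cannot be told apart. No probe set differed between the parents at an adjusted p under 0.05 by the limma interaction (0 of 24097, 0%; lowest adjusted p = 0.426), and 1595 (6.62%) had an unadjusted p under 0.05. The count was 412 without Minsoy 5-6 mm replicate 1, with 313 more positive in Archer, and 39 without Archer 3.5 mm replicate 3. It was 1 without Minsoy 3.5 mm replicate 3 and 0 without any other array. With the replicate number as a block within each length, since same-numbered arrays of both parents deviated together, it was also 1. That probe set was Gma.13133.1.S1_at, which fell by 7.04 in Archer and differed by -2.54 in Minsoy. With that block, the change within Archer alone was called for 2466 probe sets, of which 1078 were among the 1122.

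The same comparison in Archer of the next season tests for a difference between years, which cannot be told apart from one between rows. Again no probe set differed (0 of 24097, 0%; lowest adjusted p = 0.0736, limma), with 360 (1.49%) at an unadjusted p under 0.05. Without Archer 2007 3.5 mm replicate 3 the count was 1, GmaAffx.12879.1.S1_at. A count of 0 does not show that the changes were equal: the standard error of the difference was 1.096 between parents for GASA6 and 3.35 for D-II.

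In direction the other seeds matched the calls of Archer 2007. The Archer 2008 arrays had no part in those calls. The Minsoy 2007 arrays helped set the spread behind them. Same-numbered Archer and Minsoy arrays also deviated together, so the Minsoy match is not independent of the calls. Of the 759 that rose, 756 (99.6%) were higher at 5-6 mm in Archer of 2008 and 717 (94.5%) in Minsoy of 2007, where 46% and 41.5% of all members were higher. Of the 363 that fell, 356 (98.1%) and 353 (97.2%) were lower. The median change of those that rose was 0.96 in Archer 2008 and 0.74 in Minsoy 2007, and of those that fell -0.69 and -0.93. Because the probe sets were selected on their Archer 2007 values, smaller medians elsewhere are no test of a difference. In its own set of 18 arrays Archer 2008 had 0 calls in limma (2116 at an unadjusted p under 0.05) and Minsoy 2007 had 2713.

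D-II differed by 9.73 in Archer 2007, 7.96 in Archer 2008 and 7.76 in Minsoy 2007. PM34 differed by 6.17 in Archer 2007, 3.72 in Archer 2008 and 3.32 in Minsoy 2007. CKX3 fell by 3.29 in Archer 2007 and differed by -3.59 in Archer 2008 and -3.13 in Minsoy 2007. GASA6 differed by -5.15 in Archer 2007, -1.59 in Archer 2008 and -3.89 in Minsoy 2007, and neither difference of these changes passed its test (adjusted p = 0.838 between parents and 1.00 between years). WRI1B differed by 1.24 in Archer 2007, 0.78 in Archer 2008 and 0.44 in Minsoy 2007. PRP3 differed by 0.68 in Archer 2007, 0.24 in Archer 2008 and -0.03 in Minsoy 2007. PEPC17 differed by 0.60 in Archer 2007, 0.52 in Archer 2008 and -0.03 in Minsoy 2007. For these 3 genes the difference between the parents did not pass its test (adjusted p = 0.766 for WRI1B and 0.736 for each of the other two).

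**Figure D5:**
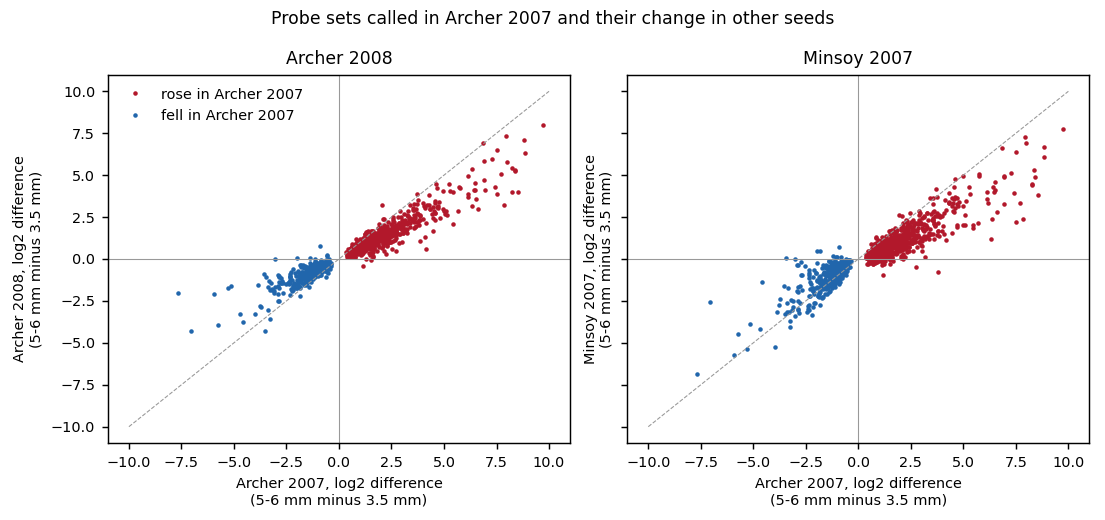
Each of the 1122 probe sets called in Archer 2007 by its log2 difference there (horizontal axis) and in Archer 2008 or Minsoy 2007 (vertical axis), 5-6 mm minus 3.5 mm in each, with those that rose in red and those that fell in blue; the dashed line marks equal changes. Nearly all points share a sign, and the median of the red points is 0.96 in Archer 2008 and 0.74 in Minsoy 2007 against 1.44 in Archer 2007.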

How the data were processed

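Total RNA of whole seeds was hybridized to Affymetrix soybean arrays, 1 per sample. The authors deposited log2 values made with GCRMA, per the submitters' processing notes, which give no version. From the values, the parents of 2007 form 1 set of 18 arrays with a common lowest value of 1.96, so levels were compared only within it. The depth of an array is limited by signal over background, which the deposited values do not hold, and 3 arrays a group limit the precision.

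Archer groups follow the sample titles. After the filter (log2 of 5 or more in 3 of the 6 arrays; 126 Affymetrix and 48 ribosomal RNA probe sets left out), limma 3.58.1 in R 4.3.3 (lmFit, contrasts.fit, eBayes; tested on simulated data) was run on the 6 parent groups of 2007, with Benjamini-Hochberg adjustment over 24097 members and a threshold of 0.05. The contrast between years used 36 arrays in 12 groups, each difference taken within a year. Named genes were given by rule: 1 probe set per gene (highest mean over the 6 arrays), the 12 largest called changes each way, up to 4 called genes of each list, the 5 largest each way called between parents or years, and the 2 largest called probe sets each way with no gene; list genes that did not pass may be named with their values. The members, lists and rules were chosen with earlier results of these data known. The given annotation and RefSeq symbols were used for names; no sequence or coordinate was used here.

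The deviations of same-numbered Archer arrays of 5-6 and 3.5 mm from their group means correlated in replicate 1 (r = 0.39). They did not in replicates 2 and 3 (-0.11 and 0.08). Those of Archer and Minsoy correlated at 5-6 mm (0.56, 0.53 and 0.19) and at 3.5 mm (0.30, 0.42 and 0.53), so alternative fits paired the lines by number. The main fits used no replicate block. Alternatives were other filters, scalings, blocks, weights and arrays, and leaving out each array.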

Additional observations from a re-analysis of the deposited data

How the results depend on the processing

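The count of 1122 changed probe sets was 936 with a filter at log2 7, 1027 after quantile normalization, 1042 after median centring, 1114 without probe sets at the floor, 1126 with trended and robust eBayes and 1226 with a replicate block over all lengths. It was 251 with no filter, 2466 with a replicate block within each length, 2275 with the 9 Archer arrays of 2007, 2073 without 3.5 mm replicate 3 and 5-6 mm replicate 1 (an alternative chosen after seeing the data), 0 with the 6 arrays alone and 0 with all 54 arrays (3628 at an unadjusted p under 0.05). With array weights it was 11146, of which 40.8% rose, against 67.6%; one array, 5-6 mm replicate 3, then had a weight of 11.7, against 0.174 to 2.40 for the others. Leaving out 1 array gave 1 to 1966. At an adjusted p under 0.1, also chosen after seeing the data, the count was 2155. The causes were not tested.

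The number of called list genes, 50 as reported, was 7 with no filter, 92 with the replicate block within each length, 220 with array weights, 76 with 9 Archer arrays, 80 without the 2 named arrays together, 0 with 6 arrays and 0 with 54, and 0 to 81 when 1 array was left out. The difference between parents had 0 calls as reported, 6 with no filter, 1 with the replicate block within each length and 0 to 412 when 1 array was left out. The difference between years had 0 calls as reported, 5 with no filter, 1 with the replicate block within each year and 0 to 1 when 1 array was left out. Over the named genes and settings, 647 results kept their side of the threshold, 407 lost it and 0 changed direction. The lengths did not overlap in any named gene, so leaving out arrays could not reverse a direction. Names are missing for 17387 members, and values at the floor understate differences.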
